A study of Mus musculus with 30 samples.

Results

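The genes examined are the 10 members of the calcium/calmodulin-dependent protein kinase family listed for this study, Camk1, Camk1d, Camk1g, Camk2a, Camk2b, Camk2d, Camk2g, Camk4, Camkk1 and Camkk2, found by gene symbol. Each occupied 1 of the 24883 rows of the expression table, and all 10 passed the filter on low values, which kept 13184 rows with a mean of at least 1 FPKM over the 30 libraries. FPKM is a fragment number scaled to transcript length and library size, so levels of different genes are compared below per transcript length. The libraries were made from the dorsal hippocampus (dCA1) of wild-type male C57BL/6J mice aged 2 to 4 months, 1 library per mouse and 6 mice per condition. VEH-HC mice received the transfection reagent in vivo-jetPEI without DNA and stayed in the home cage. VEH-T10 mice received the same reagent and 10 min of object location memory (OLM) training, a threshold session, and VEH-T3 mice received it with 3 min, a subthreshold session. Y397F-T10 mice received a plasmid for CREST, a calcium-responsive transcriptional coactivator, with a tyrosine-to-phenylalanine change at residue 397 (phospho-null) and 10 min of training. Y397D-T3 mice received the plasmid with a tyrosine-to-aspartate change at that residue (phospho-mimetic) and 3 min of training. Plasmids were infused 3 days before training, and tissue was taken 1 h after it. The plasmids used a fragment of a CaMKII promoter, vehicle mice received no DNA, and no condition received wild-type CREST by plasmid, so an effect of a mutation and an effect of plasmid DNA cannot be told apart. All comparisons with the home cage share the same 6 VEH-HC mice. Home-cage mice were only handled before tissue was taken, while the OLM procedure of trained mice included habituation to the chamber. Effects of training and of habituation therefore cannot be told apart.

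Calcium entering a neuron binds calmodulin, and the complex switches these kinases on. CaMKII forms large rings of subunits from 4 genes (Camk2a, Camk2b, Camk2g and Camk2d) and is best known for its part in synaptic potentiation at hippocampal synapses, where its subunits phosphorylate one another and keep the enzyme active after calcium has fallen. CaMKI (Camk1, Camk1d, Camk1g) and CaMKIV (Camk4) form a cascade with the upstream kinases CaMKK1 and CaMKK2, which phosphorylate their activation loops. CaMKIV acts mainly in the nucleus, where CREB is a substrate, and CaMKI acts largely in the cytoplasm on neurite and spine growth. RNA levels of these genes report on the transcripts present and not on kinase activity.

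In trained mice Camk1d, Camk2a and Camkk1 were higher than in the home cage and Camk2d and Camk2g were lower, by the contrast of all 4 trained conditions with VEH-HC. The largest change in ratio was in the lowest gene of the family, Camk2d, which fell by 0.57 log2, and the most repeated was in Camk1d, which passed the test in each of the 4 trained conditions. No member passed the test when Y397F-T10 was compared with VEH-T10, Y397D-T3 with VEH-T3, or VEH-T10 with VEH-T3. Few rows of any kind did, with 0%, 0.00758% and 0.0455% of tested rows called in that order.

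The sequence just upstream of an annotated transcription start is shown for the 3 genes on which these results turn most and for which a promoter entry was found, Camk1d, Camkk1 and Camk2d. RefSeq promoter entries (GRCm38.p6) matched 7 of the 10 members with 8 windows. Camk2a, Camk2g and Camk4 had none. Each line gives the 250 bases before the start, 5′ to 3′ on the strand of the gene, and capitals mark the motif TGACG, the half-site of the cAMP response element (CRE) that CREB binds.
Camk1d (chr2:5676047-5676296, minus strand): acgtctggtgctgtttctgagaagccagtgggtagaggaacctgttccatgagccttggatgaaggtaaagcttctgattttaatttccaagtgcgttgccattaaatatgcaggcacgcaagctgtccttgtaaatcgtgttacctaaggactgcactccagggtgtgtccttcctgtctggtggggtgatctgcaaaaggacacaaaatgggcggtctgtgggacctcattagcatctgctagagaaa
Camkk1 (chr11:73018738-73018987, plus strand): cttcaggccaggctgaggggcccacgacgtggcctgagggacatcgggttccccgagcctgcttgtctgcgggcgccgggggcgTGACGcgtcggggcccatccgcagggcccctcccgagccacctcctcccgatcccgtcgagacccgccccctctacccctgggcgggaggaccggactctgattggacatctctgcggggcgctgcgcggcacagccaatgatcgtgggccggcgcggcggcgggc
Camk2d (chr3:126596701-126596950, plus strand): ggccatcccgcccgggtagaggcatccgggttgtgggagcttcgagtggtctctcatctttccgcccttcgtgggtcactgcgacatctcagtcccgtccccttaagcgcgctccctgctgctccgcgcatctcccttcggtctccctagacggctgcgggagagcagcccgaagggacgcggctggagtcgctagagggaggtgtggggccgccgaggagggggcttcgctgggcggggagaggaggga
The windows of Camk1d and Camk2d lie inside the annotated genes (chromosome 2: 5293457–5714515 and chromosome 3: 126596302–126846326), each before a transcript start that is not the outermost one, and a second Camk1d entry lies at the far 5′ end. The windows were searched on both strands for the full CRE (TGACGTCA), its half-site (TGACG, which every full CRE also contains), the AP-1 motif (TGANTCA) and the E-box (CANNTG). The half-site began 166 bases before the start in Camkk1 and 185 bases before it in Camk1, and it is found in 17.8% of 32851 promoter windows of the same length. None of the 8 windows held the full CRE (1.55% of all promoters) or the AP-1 motif (6.75%), and the E-box (66.2%) was found in the windows of Camk1, Camk1d and Camk1g. A motif is a match of letters and was not tested as a binding site.

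The family spanned more than 2 orders of magnitude in level. Averaged over the 30 mice, FPKM was 865 for Camk2a, 384 for Camk2b, 72.9 for Camkk1, 48.1 for Camk2g, 36.8 for Camk1d, 34.2 for Camkk2, 27.2 for Camk1, 10.4 for Camk1g, 9.49 for Camk4 and 6.68 for Camk2d. The order from Camk2a through Camk2b and Camkk1 to Camk2g had no overlap between neighbours in any of the 30 libraries, and neither did Camk1 above Camk1g. The other neighbours overlapped. Camk2g exceeded Camk1d in 27 of 30 libraries, Camk1d exceeded Camkk2 in 22, Camkk2 exceeded Camk1 in 29, Camk1g exceeded Camk4 in 22 and Camk4 exceeded Camk2d in 26. Variation among mice was smallest in Camkk2, with a coefficient of variation of 6.53%, and largest in Camk2d, with 31.4%.

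**Figure D1:**
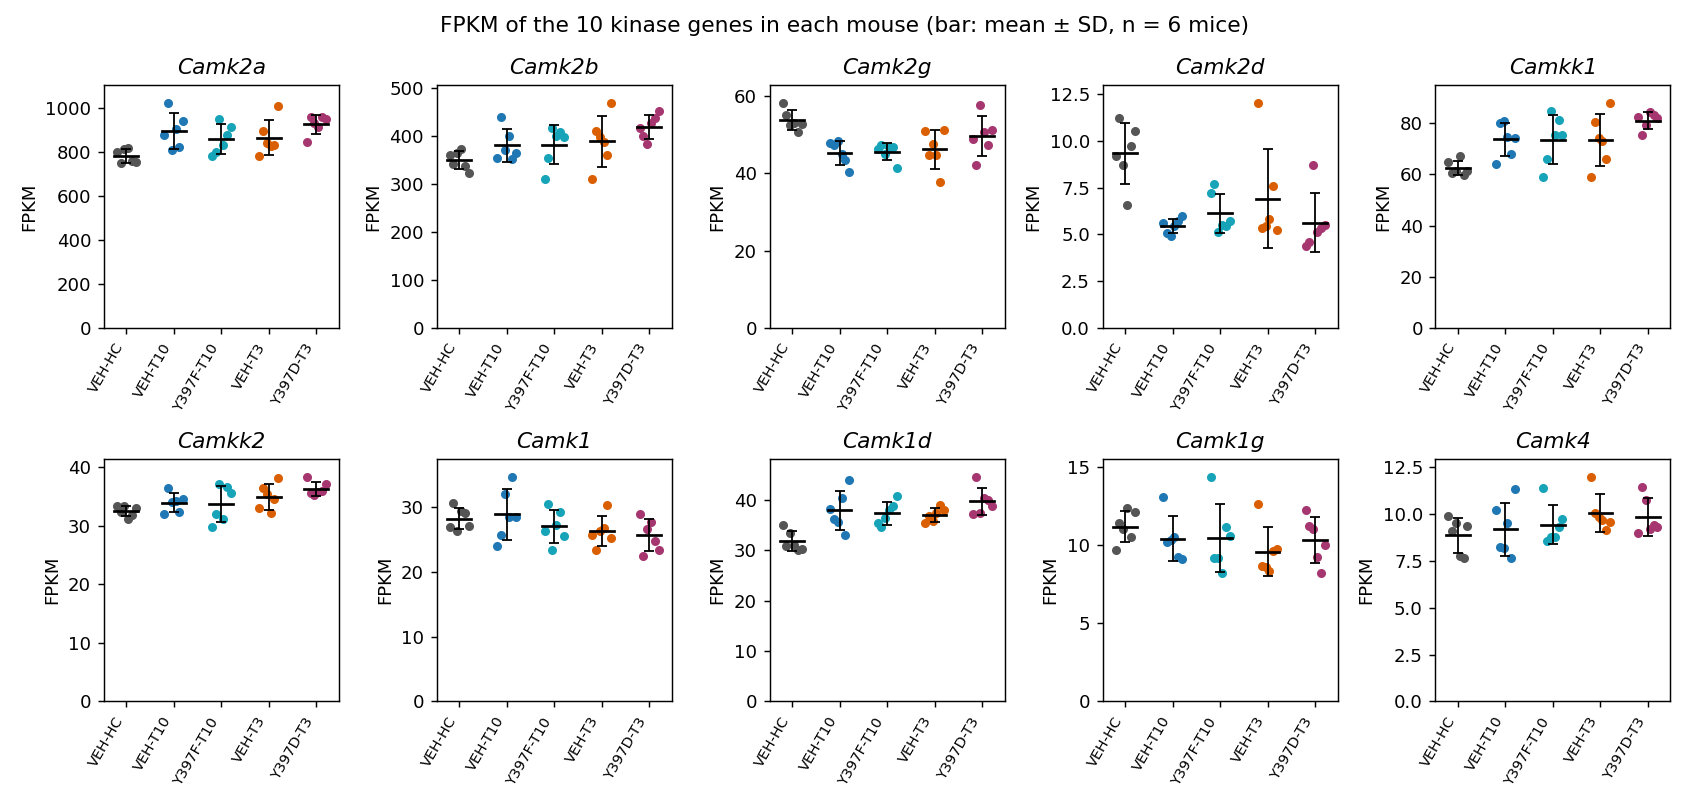
FPKM of each of the 10 kinase genes in every mouse (points, y axis from 0), by condition on the x axis, with the mean and SD of 6 mice as bars. Camk2d lies above 6.5 FPKM in all 6 VEH-HC mice and below 6 FPKM in all 6 VEH-T10 mice, while Camk1d is higher in each trained condition than in VEH-HC on average.

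Camk1d encodes CaMKIδ, a cytoplasmic kinase activated by the CaMKKs. Its FPKM (lowest, median and highest mouse) was 30.2, 31.0 and 35.0 for VEH-HC mice, 35.4, 37.1 and 38.9 for VEH-T3, 37.3, 39.4 and 44.6 for Y397D-T3, 33.2, 37.2 and 43.9 for VEH-T10 and 34.6, 37.2 and 40.9 for Y397F-T10. Every VEH-T3 and every Y397D-T3 mouse exceeded every VEH-HC mouse, whereas the lowest mice of VEH-T10 and Y397F-T10 lay within the home-cage range. Means were 31.8 ± 1.94, 37.1 ± 1.35, 39.7 ± 2.72, 37.9 ± 3.84 and 37.4 ± 2.32 (SD, n = 6) in the same order. On the log2(FPKM + 1) scale the difference from VEH-HC was 0.24 in VEH-T10 (limma, Benjamini-Hochberg adjusted p = 0.0309), 0.22 in Y397F-T10 (adjusted p = 0.0429), 0.21 in VEH-T3 (adjusted p = 0.0259) and 0.31 in Y397D-T3 (adjusted p = 0.00176), each with a standard error of 0.0554. The calls in VEH-T10, Y397F-T10 and VEH-T3 were lost when only the compared libraries were fitted (adjusted p = 0.0659, 0.0772 and 0.083) and without VEH-HC mouse 2, 4 or 5. The VEH-T10 and Y397F-T10 calls were also lost with libraries centred on their median (adjusted p = 0.0583 and 0.0747), with length and GC trends removed (adjusted p = 0.0608 and 0.0812) and without VEH-HC mouse 6. Further losses came without VEH-T10 mouse 4 or 6, VEH-T3 mouse 2, or Y397F-T10 mouse 3, 4, 5 or 6, so that 6, 4 and 8 of 12 such fits kept the call in VEH-T10, Y397F-T10 and VEH-T3. The Y397D-T3 call was kept without any 1 of its 12 mice. All 24 trained mice lay above the home-cage median and 22 lay above every home-cage mouse (trained against VEH-HC, 0.25, SE 0.0438, limma adjusted p = 0.0017).

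Camkk1 and Camkk2 encode the upstream kinases of the cascade, and CaMKK2 also phosphorylates AMPK. Camkk1 (chromosome 11: 73019008–73042073) had lowest, median and highest FPKM of 59.9, 61.4 and 67.0 for VEH-HC mice, 59.1, 73.8 and 88.0 for VEH-T3, 75.5, 82.1 and 84.2 for Y397D-T3, 64.2, 74.5 and 80.7 for VEH-T10 and 58.9, 75.4 and 84.7 for Y397F-T10. All Y397D-T3 mice lay above the home-cage range, and in the other trained conditions the medians lay above it while single mice fell inside or below it. The difference from VEH-HC passed the test in Y397D-T3 (0.37, SE 0.0801, limma adjusted p = 0.0064) and over all trained mice (0.26, SE 0.0633, adjusted p = 0.0114). It was 0.23 in VEH-T10 (adjusted p = 0.151), 0.22 in Y397F-T10 (adjusted p = 0.153) and 0.22 in VEH-T3 (adjusted p = 0.102). Camkk2 spread less, with lowest, median and highest FPKM of 31.2, 32.6 and 33.3 in VEH-HC, and of 35.2, 35.8 and 38.3 in Y397D-T3, so these mice did not overlap. The other trained conditions ranged from 29.7 to 38.1 FPKM and overlapped the home cage. Camkk2 rose by 0.15 log2 in Y397D-T3 (SE 0.0478, limma adjusted p = 0.0463), a call that was lost on leaving out any single mouse of the comparison (adjusted p from 0.0505 to 0.0909) and without the filter on mean FPKM (adjusted p = 0.0546).

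Camk2a, which encodes the α subunit, is the most abundant kinase of the family and a standard marker of forebrain excitatory neurons. Its FPKM (lowest, median and highest) was 748, 779 and 816 for VEH-HC mice, 781, 835 and 1006 for VEH-T3, 845, 940 and 959 for Y397D-T3, 807, 889 and 1022 for VEH-T10 and 783, 853 and 951 for Y397F-T10. All 24 trained mice exceeded the home-cage median, and only Y397D-T3 had no mouse within the home-cage range. The difference was 0.24 log2 in Y397D-T3 (SE 0.0616, limma adjusted p = 0.0173) and 0.18 over all trained mice (SE 0.0487, adjusted p = 0.0224), and it did not pass in VEH-T10 (0.19, adjusted p = 0.122), VEH-T3 (0.14, adjusted p = 0.178) or Y397F-T10 (0.13, adjusted p = 0.27). The pooled call was lost without VEH-HC mouse 2, 5 or 6.

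Camk2b (chromosome 11: 5969644–6066362), which encodes the actin-binding β subunit, was 322, 350 and 373 FPKM in VEH-HC and 383, 422 and 451 in Y397D-T3 (lowest, median and highest), with no overlap. VEH-T10 had 351, 368 and 440, Y397F-T10 had 311, 399 and 417, and VEH-T3 had 310, 392 and 469, so these conditions spread on both sides of the home cage or across its upper part. Camk2b rose by 0.26 log2 in Y397D-T3 (SE 0.0787, limma adjusted p = 0.0406), and this call stood only without VEH-HC mouse 4 or Y397D-T3 mouse 3 among the 12 fits that left out 1 of the compared mice, and it was lost without the filter on mean FPKM (adjusted p = 0.0559). In the other conditions the difference lay between 0.12 and 0.14 and did not pass.

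Camk2d (chromosome 3: 126596302–126846326) encodes the δ subunit, the main CaMKII of heart and a minor one in forebrain. Its lowest, median and highest FPKM were 6.58, 9.47 and 11.2 for VEH-HC mice, 5.23, 5.63 and 12.03 for VEH-T3, 4.38, 5.23 and 8.71 for Y397D-T3, 4.92, 5.52 and 5.96 for VEH-T10 and 5.13, 5.63 and 7.67 for Y397F-T10. VEH-T10 did not overlap the home cage, and the medians of the 3 other trained conditions lay below every home-cage mouse, with 1 or 2 mice of each inside or above the home-cage range. Means were 9.33 ± 1.62, 6.91 ± 2.65, 5.61 ± 1.58, 5.45 ± 0.388 and 6.12 ± 1.06 (SD, n = 6) in the same order. The log2 difference from VEH-HC was -0.67 in VEH-T10 (limma adjusted p = 0.0308), -0.53 in Y397F-T10 (adjusted p = 0.0736), -0.42 in VEH-T3 (adjusted p = 0.0957) and -0.66 in Y397D-T3 (adjusted p = 0.00987), with a standard error of 0.152. Over all trained mice it was -0.57 (SE 0.12, adjusted p = 0.00462), with 23 of 24 mice below the home-cage median and 19 below every home-cage mouse. The VEH-T10 call stood only without VEH-HC mouse 4 or VEH-T10 mouse 1 among the fits that left out 1 compared mouse (adjusted p up to 0.0939) and was lost when libraries were centred on their median (adjusted p = 0.0634), and the pooled call was kept in all 30.

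Camk2g (chromosome 14: 20734875–20794088) encodes the γ subunit, one form of which carries calmodulin to the nucleus. Its lowest, median and highest FPKM were 50.7, 52.9 and 58.3 for VEH-HC mice, 37.8, 46.2 and 51.4 for VEH-T3, 42.2, 49.8 and 57.7 for Y397D-T3, 40.3, 46.1 and 48.4 for VEH-T10 and 41.4, 46.6 and 47.3 for Y397F-T10. The T10 conditions did not overlap the home cage, VEH-T3 reached its lower edge and Y397D-T3 spread through it. The log2 difference was -0.24 in VEH-T10 (limma adjusted p = 0.0672), -0.23 in Y397F-T10 (adjusted p = 0.0715), -0.22 in VEH-T3 (adjusted p = 0.0471) and -0.12 in Y397D-T3 (adjusted p = 0.267), with a standard error of 0.0654, and -0.20 over all trained mice (SE 0.0517, adjusted p = 0.0146). The VEH-T3 call stood only without VEH-T3 mouse 1 or 6 among the fits that left out 1 compared mouse. It was also lost without the filter on mean FPKM (adjusted p = 0.0598), with centred libraries (adjusted p = 0.132), with only the compared libraries (adjusted p = 0.125) and with length and GC trends removed (adjusted p = 0.377). The pooled call was kept in all 30 fits that left out 1 mouse but was lost when libraries were centred on their median (adjusted p = 0.0665) or when trends with transcript length and GC content were removed (adjusted p = 0.226).

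The proportions of the 4 CaMKII transcripts shifted slightly between home cage and training. Camk2a was 65.5% of the summed CaMKII FPKM in VEH-HC and 66.1% to 67.5% in the trained conditions on average. Camk2g was 4.51% in VEH-HC and between 3.44% and 3.56% in the trained conditions, and Camk2d was 0.787% in VEH-HC against 0.546% in VEH-T3, 0.401% in Y397D-T3, 0.414% in VEH-T10 and 0.481% in Y397F-T10. The sum itself averaged 1194 FPKM for VEH-HC mice, 1305 for VEH-T3, 1400 for Y397D-T3, 1325 for VEH-T10 and 1291 for Y397F-T10, and most of it is Camk2a and Camk2b. These shares are a description and had no test of their own.

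Camk1, Camk1g and Camk4 passed the test in no comparison. Camk1, which encodes CaMKIα, had means of 28.3 FPKM for VEH-HC mice, 26.3 for VEH-T3, 25.7 for Y397D-T3, 28.9 for VEH-T10 and 27.1 for Y397F-T10, and its individual mice ranged from 22.5 to 34.7. Camk1g, which encodes the membrane-anchored CaMKIγ, averaged 11.2, 9.60, 10.4, 10.4 and 10.5 FPKM in the same order, and its difference in VEH-T3 was -0.21 (limma adjusted p = 0.261). Camk4, which encodes the nuclear CaMKIV, averaged 8.88, 10.1, 9.86, 9.20 and 9.43 FPKM, with a difference of 0.16 in VEH-T3 (adjusted p = 0.257). The ranges of all 3 genes overlapped between VEH-HC and every trained condition.

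**Figure D2:**
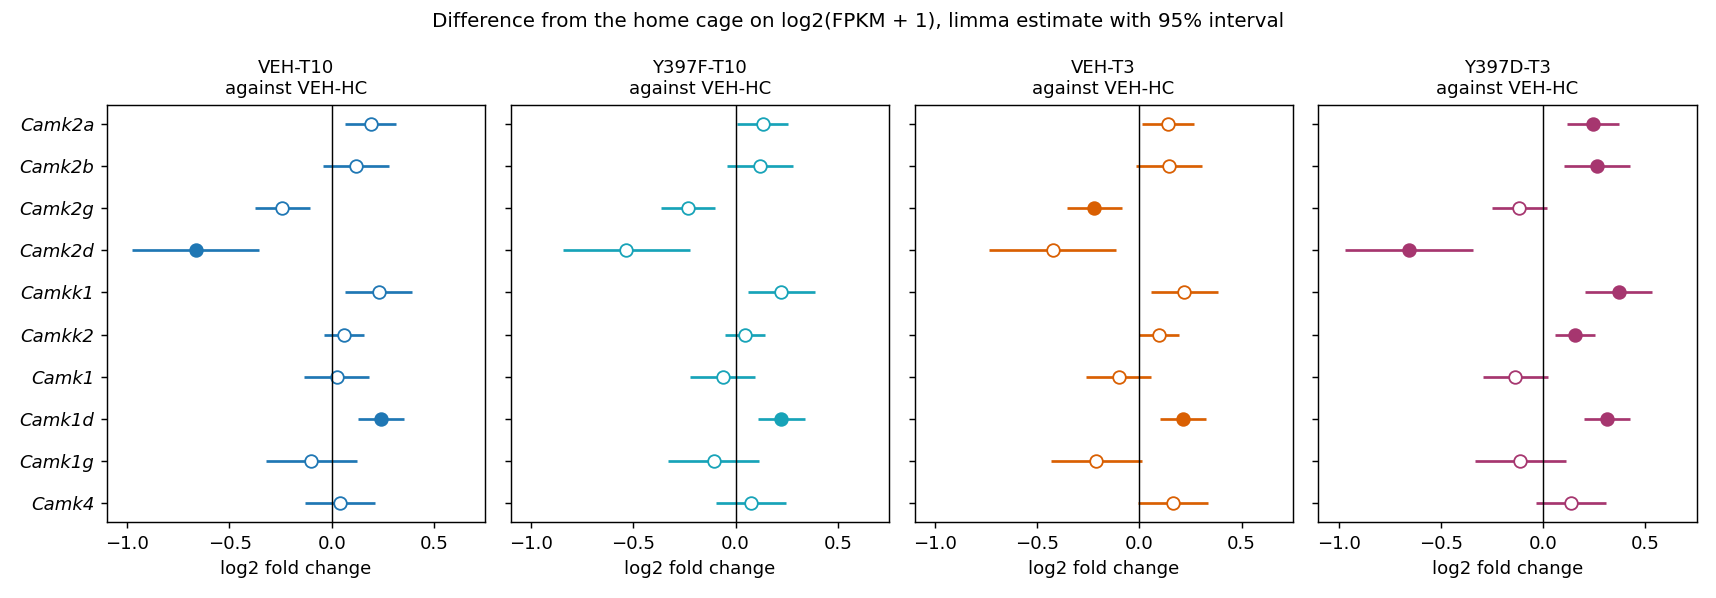
Difference of each trained condition from VEH-HC on the log2(FPKM + 1) scale for the 10 genes (x axis), as the limma estimate with its 95% interval. The estimate for Camk1d is above 0 and that for Camk2d below 0 in all 4 panels, and Y397D-T3 has 6 genes past the adjusted threshold.

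Counted over the family, VEH-T10 had 2 of 10 members past the threshold (Camk1d higher, Camk2d lower), beside 0.819% of all tested rows, of which 0.319% were higher and 0.501% lower. VEH-T3 had 2 (Camk1d higher, Camk2g lower) beside 5.17% of rows (2.23% higher, 2.94% lower), Y397F-T10 had 1 (Camk1d higher) beside 1.13% (0.47% higher, 0.66% lower), and Y397D-T3 had 6 (Camk1d, Camk2a, Camk2b, Camkk1 and Camkk2 higher, Camk2d lower) beside 7.07% (3.91% higher, 3.16% lower). The pooled contrast had 5, of which 3 were higher, beside 9.66% (3.86% higher, 5.79% lower). With unadjusted p values from the Cyber-T-style test the counts were 5 in VEH-T10 beside 11.4% of rows, 4 in VEH-T3 beside 17% and 4 in Y397F-T10 beside 12.6%, with 6 in Y397D-T3 beside 20.7% and 6 in the pooled contrast beside 20.9%. Members whose mice did not overlap VEH-HC numbered 2 in VEH-T10 (2.43% of all rows), 1 in VEH-T3 (1.99%), 1 in Y397F-T10 (1.8%) and 5 in Y397D-T3 (5.52%), and 0 in the pooled contrast (0.121%). The median log2 difference of the 10 members was 0.05 in VEH-T10, 0.12 in VEH-T3, 0.06 in Y397F-T10 and 0.15 in Y397D-T3, where the medians of all tested rows were -0.03, -0.04, -0.04 and -0.03. The F-test over the 5 conditions called Camk1d (limma adjusted p = 0.0141) and Camk2d (adjusted p = 0.0381), beside 2.64% of rows. These counts share their home-cage mice and are not independent of one another.

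The plasmid comparisons set mice that received a mutant CREST plasmid beside vehicle mice with the same training, and so compare plasmid and mutation together with no DNA. When Y397F-T10 was compared with VEH-T10, Y397D-T3 with VEH-T3, and the vehicle mice of both sessions with each other, limma called 0 members, and 0 had an unadjusted p under 0.05. The background was equally sparse, with 0%, 0.00758% and 0.0455% of tested rows called in the 3 comparisons and 3.78%, 7.87% and 8.15% at an unadjusted p under 0.05. Among all rows 0.387% had no overlap between the 10 min and the 3 min vehicle mice, and 0 members did. A Cyber-T-style test with unadjusted p values also called 0 members in these 3 comparisons, beside 1.87%, 5.21% and 4.98% of rows. The nearest to a difference was Camkk1 in Y397D-T3 against VEH-T3, 0.15 log2 with a 95% interval from -0.01 to 0.31 (limma adjusted p = 0.657), followed by Camk1d with 0.10 and an interval from -0.02 to 0.21. Camk2a differed by 0.10 there, with an interval from -0.02 to 0.23, and all 6 Y397D-T3 mice lay above the VEH-T3 median for Camk1d, Camk2a, Camkk1 and Camkk2. For Y397F-T10 against VEH-T10 the intervals were -0.13 to 0.10 for Camk1d, -0.17 to 0.16 for Camkk1, -0.19 to 0.07 for Camk2a, -0.16 to 0.16 for Camk2b and -0.18 to 0.44 for Camk2d. The interval of Camk2d is the widest of these and holds a rise of up to 0.44. That Y397D-T3 had 6 calls against the home cage and VEH-T3 had 2 does not show that they differ, since no member passed when the 2 conditions were compared with each other.

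**Figure D3:**
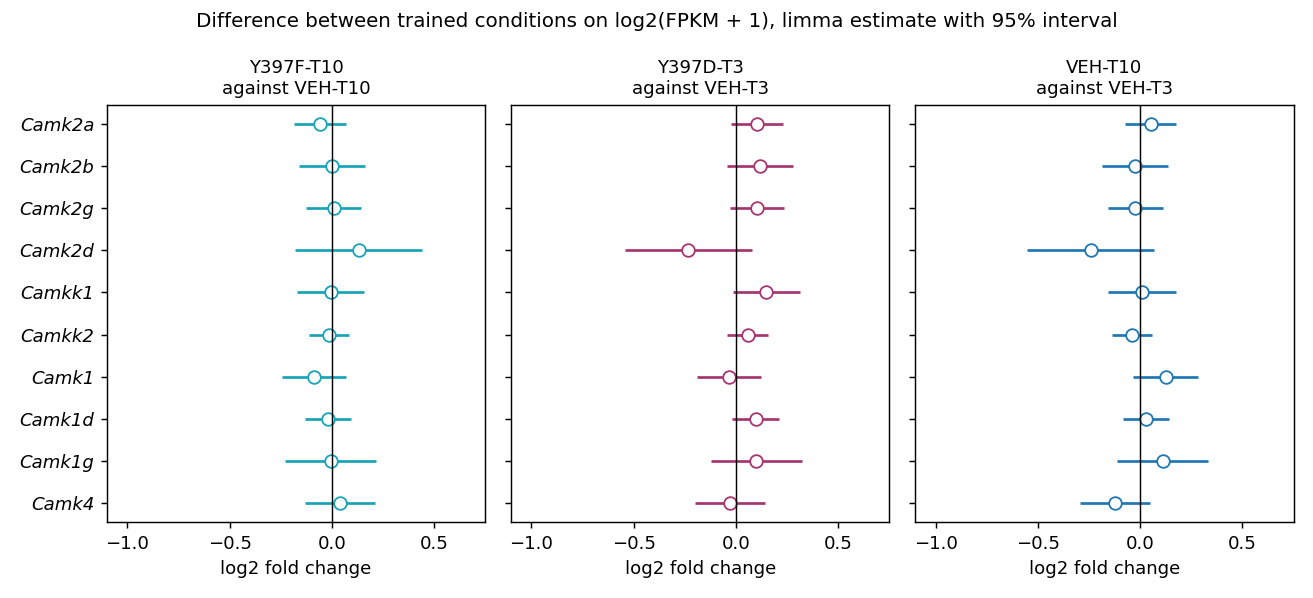
Difference between trained conditions for the 10 genes on the log2(FPKM + 1) scale (x axis), as the limma estimate with its 95% interval, for each plasmid condition against its vehicle control and for 10 min against 3 min of training. Every interval includes 0, and those of Camk2d are the widest.

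The samples are bulk tissue, so fewer cells of a type and less RNA per cell cannot be told apart. The members that fell moved with deep cortical layer markers. The summed FPKM of 7 deep cortical layer markers (Ctgf, Nxph4, Cplx3, Tle4, Foxp2, Fezf2 and Nxph3, none of them at 0 in any condition) had a lowest, a median and a highest sum of 46.5, 49.3 and 54.4 for VEH-HC mice, 26.6, 32.6 and 70.6 for VEH-T3, 31.6, 36.2 and 52.3 for Y397D-T3, 27.9, 35.9 and 48.6 for VEH-T10 and 29.0, 32.7 and 57.5 for Y397F-T10. Of these markers 5 reached the filter and 3 of them passed as lower in trained mice (Ctgf, Cplx3 and Nxph3). Tle4 and Fezf2 did not pass. Tle4 was level, with a median of 13.17 FPKM in VEH-HC and between 12.99 and 13.22 in the trained conditions. The median of Fezf2 was 16.02 FPKM in VEH-HC and between 11.18 and 14.42 in the trained conditions. The median for 8 thalamus markers was 41.5 FPKM in VEH-HC and between 28.4 and 34.01 in the trained conditions. Of these markers 6 reached the filter and 2 of them passed as lower in trained mice (Slc17a6 and Zic1). Others were level, such as Prkcd, with a median of 16.8 FPKM in VEH-HC and between 15.96 and 17.03 in the trained conditions. The 7 CA1 pyramidal markers were all present, summing to between 186 and 277 FPKM over all libraries, with 217 to 234 in VEH-HC. Spink8 passed as higher in VEH-T3 and over all trained mice, with a median of 25.1 FPKM in VEH-HC and between 33.3 and 36.7 in the trained conditions. Pou3f1 passed as higher in Y397D-T3, and the other CA1 markers passed in no comparison. Choroid plexus markers ranged from 914 to 5576 FPKM in VEH-HC and from 10.1 to 12740 in the trained conditions.

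Camk2d was higher in libraries with more of the deep-cortex markers, with exceptions. Over 30 libraries its correlation with their mean log2 level was 0.78, and 0.69 around the condition means. For Camk2g the values were 0.73 and 0.61. With thalamus markers they were 0.42 and -0.02 for Camk2d and 0.23 and -0.12 for Camk2g. With choroid plexus markers they were 0.26 and -0.09 for Camk2d and 0.13 and -0.08 for Camk2g. The points share their libraries and depth, and the correlations are descriptions. VEH-T3 mouse 5 went the other way, with the second highest Camk2d of its condition (7.57 FPKM) at its lowest deep-cortex level (-0.41), and in Y397F-T10 mouse 2 had more Camk2d (7.67 FPKM at a level of -0.07) than mouse 1 (7.22 FPKM at 0.43). The 3 members that were higher over all trained mice ran opposite to the deep-cortex markers. The values were -0.65 and -0.46 for Camk1d, -0.62 and -0.48 for Camk2a and -0.68 and -0.59 for Camkk1. Camk2b also ran opposite, with -0.66 and -0.64.

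Camk2b and Camkk1 went most closely with the markers of dentate granule cells (Prox1, C1ql2, Dsp, Lct, Trpc6 and Stxbp6), with 0.74 overall and 0.76 around the condition means for Camk2b and 0.69 and 0.75 for Camkk1. The lowest, median and highest sum of these 6 markers, none at 0, was 117, 121 and 148 FPKM for VEH-HC mice, 83.3, 160 and 181 for VEH-T3, 98.9, 159 and 189 for Y397D-T3, 76.6, 134 and 176 for VEH-T10 and 69.5, 154 and 194 for Y397F-T10. The medians were higher in the trained conditions, whose mice spread on both sides of the home-cage range, and 0 of the 6 markers passed in any comparison with the home cage by limma, with 0 or 1 at an unadjusted p under 0.05 and 0 to 2 by the Cyber-T-style test. Their part in the differences of Camk2b and Camkk1 was not tested. The CA2 and CA3 markers went with Camk1d (0.49 and 0.52) and against Camk2g (-0.54 and -0.63), with sums from 149 to 178 FPKM in VEH-HC and from 124 to 243 in the trained conditions and none of the 7 at 0. Of the 6 that reached the filter, 0 passed over all trained mice by limma, with 2 at an unadjusted p under 0.05 and 3 by the Cyber-T-style test, and their part in these differences was not tested.

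Camk1g, which had no call, followed the interneuron markers (Gad1, Gad2, Slc32a1, Pvalb, Sst and Vip) with 0.88 overall and 0.87 around the condition means. The interneuron sum had a median of 737 FPKM in VEH-HC and between 586 and 744 in the trained conditions, none of the 6 was at 0, and 2 of them (Gad1 and Slc32a1) passed as lower over all trained mice.

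**Figure D4:**
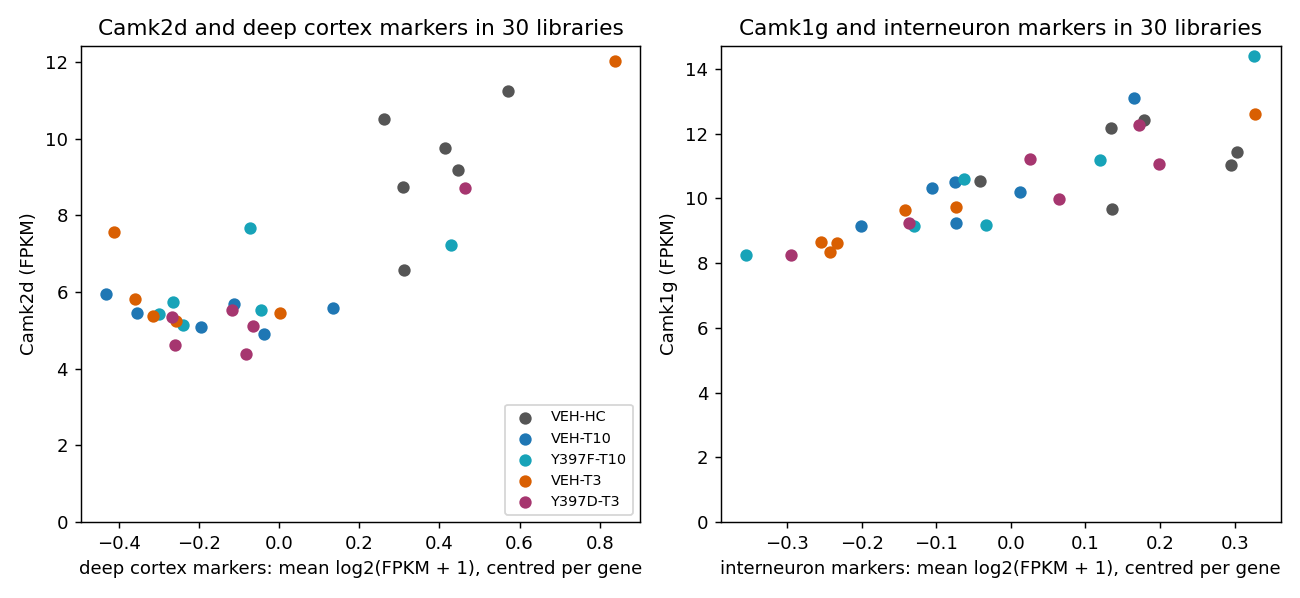
Left, Camk2d (FPKM, y axis) against the mean log2(FPKM + 1) of the deep-cortex markers, centred per gene (x axis), and right, Camk1g against the interneuron markers, with 1 point per library coloured by condition. The VEH-T3 mouse with 12.03 FPKM of Camk2d is also the library with the highest deep-cortex level, 0.84.

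In 3 trained libraries (Y397F-T10 mouse 1, VEH-T3 mouse 1 and Y397D-T3 mouse 3) the deep-cortex level reached the home-cage range, with 0.43, 0.84 and 0.46 against 0.26 to 0.57 in VEH-HC. These were the mice with 12.03 and 8.71 FPKM of Camk2d in VEH-T3 and Y397D-T3. For the 3 libraries, in the same order, microglia marker levels were -0.78, -0.97 and -0.52, each the lowest of its condition. So were the astrocyte levels (-0.70, -0.65 and -0.39) and the oligodendrocyte levels (-0.82, -0.69 and -0.52). Their dentate granule levels were -0.87, -0.62 and 0.15. Leaving out the 3, a choice made after the data were seen, took away the trained libraries most like the home cage in these markers, so every remaining trained library lay below every VEH-HC library on that score. The members called then numbered 4 in VEH-T10 (Camk1d, Camk2d, Camk2g, Camkk1), beside 3.35% of rows, 6 in VEH-T3 (Camk1d, Camk1g, Camk2b, Camk2d, Camk2g, Camkk1), beside 11.9%, 4 in Y397F-T10 (the same genes as in VEH-T10), beside 6.11%, and 6 in Y397D-T3, beside 10.1%, with 7 in the pooled contrast beside 14.7%. None of the left-out libraries is from VEH-T10 or VEH-HC, so the VEH-T10 differences from VEH-HC did not change. Camkk1 stayed at 0.23 there and Camk2g at -0.24. Their limma adjusted p moved from 0.151 to 0.0473 and from 0.0672 to 0.0247. The added VEH-T10 calls came with the variance shared by all conditions and the adjustment over all rows. Between trained conditions 0 members were called in that fit, beside 0.0379% of rows for 10 min against 3 min and 0% for both plasmid comparisons. Camk2d differed from VEH-HC by -0.58 in VEH-T3 (limma adjusted p = 0.000864) and by -0.58 in Y397F-T10 (adjusted p = 0.00176) in that fit. The calls for Camk2d and Camkk1 in VEH-T3 appeared already on leaving out VEH-T3 mouse 1 alone, and those in Y397F-T10 on leaving out Y397F-T10 mouse 1. The part of deep-cortex tissue in the differences of Camk2d and Camk2g was not tested, nor was that of the other cell types in the changed calls of the comparisons that lost libraries.

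Within the family, mice with more Camk2b had more Camkk1. Around the condition means the correlation of Camk2b with Camkk1 was 0.89 over 30 libraries, that of Camk2a with Camk2b was 0.77, and that of Camkk1 with Camkk2 was 0.75. Camk2d ran against Camk2b with -0.73 and against Camkk1 with -0.69. All pairs share the same libraries, and these values are descriptions.

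**Figure D5:**
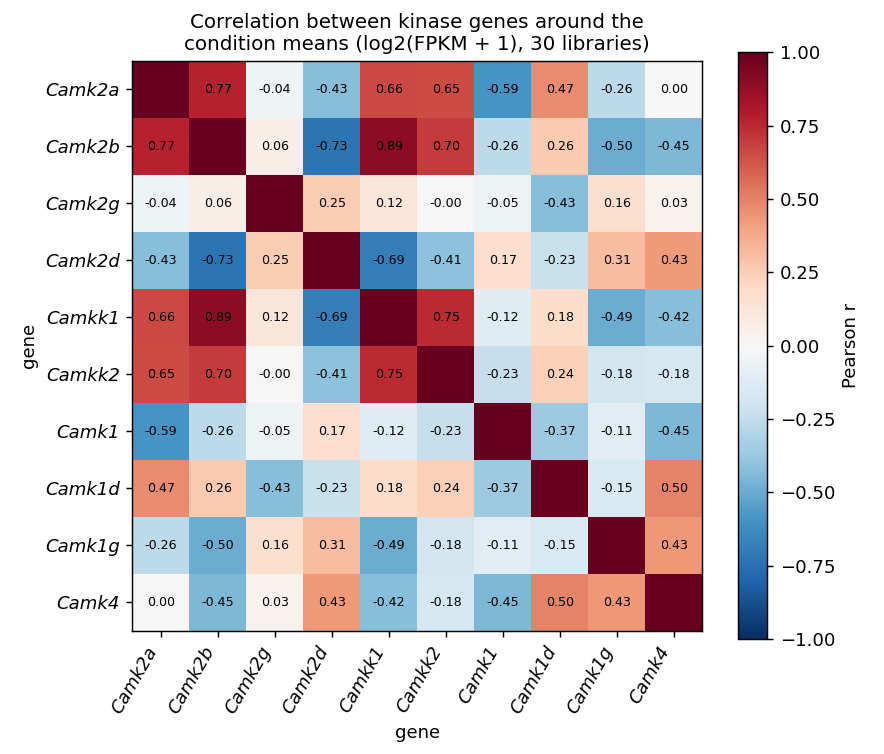
Pearson correlation between the 10 kinase genes around the condition means on log2(FPKM + 1) over 30 libraries, with both axes listing the genes and the colour giving r from -1 to 1. Camk2a, Camk2b, Camkk1 and Camkk2 correlate positively with one another, and Camk2d correlates negatively with Camk2b (-0.73).

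The genes whose pattern over the 30 libraries was most like that of each member with a call were found by the Pearson correlation of log2(FPKM + 1) among all tested rows. For Camk2d they included Cbln1 (0.90) and Ctgf (0.87), the latter a deep-cortex marker. For Camk2g they were Prss12 (0.87), Kcnj9 (0.86) and Kcnc4 (0.86), and for Camk1d they were Prkca (0.92), Trhde (0.88) and Arhgef17 (0.87). Camkk1 was nearest to Neurod2 (0.94), Baiap2 (0.93) and Camk2b (0.91), and Camk2b to Ptk2b (0.95), Orai2 (0.93) and Kalrn (0.92). Camk2a was nearest to Camta2 (0.88), Mast3 (0.88) and Crtc1 (0.87), and Camkk2 to Syt7 (0.82), Sowaha (0.81) and Cap2 (0.81).

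The genes that act around the kinases were tested as lists of 57 genes, all of which passed the filter. The calmodulin genes Calm2 and Calm3, at means of 1191 and 1083 FPKM, were not called in any comparison with the home cage. Of the 4 small proteins that hold calmodulin, Nrgn, Pcp4 and Pcp4l1 were not called, and Gap43, an axonal growth protein, was lower over all trained mice (-0.48, limma adjusted p = 0.0461) but in no single condition. Camk2n2, which encodes an inhibitor protein of CaMKII, had lowest, median and highest FPKM of 58.2, 62.6 and 70.1 for VEH-HC mice, 28.0, 35.8 and 70.7 for VEH-T3, 33.2, 39.9 and 69.0 for Y397D-T3, 33.0, 42.9 and 60.8 for VEH-T10 and 32.1, 39.4 and 69.5 for Y397F-T10. In each trained condition 5 of 6 mice lay below every home-cage mouse and 1 lay inside or above that range. Its log2 difference was -0.68 in VEH-T3 (limma adjusted p = 0.0376) and -0.60 over all trained mice (SE 0.152, adjusted p = 0.0138), and between -0.60 and -0.56 without passing in the other conditions. The related inhibitor gene Camk2n1 had medians between 169 and 185 FPKM in all conditions and no call.

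Of 10 kinases and pseudokinases with a CaMK-like domain, Dclk2 passed as higher in Y397D-T3 (0.17, limma adjusted p = 0.0433) and Pnck, which encodes CaMKIβ, as lower over all trained mice (-0.38, adjusted p = 0.0258). Among 7 calcineurin subunits and regulators, Ppp3ca, the catalytic α subunit of the calcium-activated phosphatase, was higher in VEH-T3 (0.31, adjusted p = 0.0429) and in Y397D-T3 (0.36, adjusted p = 0.0158), and Ppp3cc in VEH-T3 (-0.22) and Rcan3 in Y397D-T3 (-0.21) were lower. Of the 6 phosphatases that reverse CaMK phosphorylation only Ppp1cb passed, lower in Y397D-T3 (-0.15). Of 11 postsynaptic partners and substrates of CaMKII, 0 passed in VEH-T10, 2 in VEH-T3 (Grin2a by 0.80 and Lrrc7 by 0.35), 1 in Y397F-T10 (Grin2a by 0.76) and 5 in Y397D-T3, all higher. They included Grin2a (0.84), Shank3 (0.27), Lrrc7 (0.39) and Kalrn (0.28), which encode a glutamate receptor subunit, a scaffold, the scaffold densin-180 and a guanine nucleotide exchange factor. Grin2a, which encodes the NMDA receptor subunit GluN2A that CaMKII-containing synapses carry, averaged 8.21 FPKM for VEH-HC mice, 14.6 for VEH-T3, 14.99 for Y397D-T3, 10.0 for VEH-T10 and 14.1 for Y397F-T10. Its home-cage mice spread widely, with a lowest, median and highest FPKM of 3.448, 8.695 and 11.03. For Lrrc7 these home-cage values were 5.365, 7.821 and 8.551. Of 8 genes of the CREB group, Creb1 (0.23) and Crebbp (0.38) were higher in VEH-T3, Crem in Y397F-T10 (0.35) and Crebbp in Y397D-T3 (0.32), and of 6 AMPK subunits Prkab2 was higher in Y397D-T3 (0.29). Crebbp had a lowest, median and highest FPKM of 3.886, 5.883 and 6.587 in VEH-HC. In all, 0 of 57 listed genes passed in VEH-T10, 7 in VEH-T3, 2 in Y397F-T10, 11 in Y397D-T3 and 13 in the pooled contrast (8 higher, 5 lower, the latter including Rcan2 by -0.23 and Rcan3 by -0.18), read beside the shares of all rows given above. None passed in the 3 comparisons between trained conditions by limma.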

How the data were processed

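Paired-end reads had been mapped to mm10 (TopHat 2.1.1), and FPKM (Cufflinks 2.2.1) were deposited by the authors. These deposited FPKM values of all 30 libraries were used. Libraries were sequenced on 2 platforms, which the sources do not assign to libraries. FPKM holds no read totals. Depth relative to the median library, from the steps of single fragments in 2642 low rows, ran from 0.811 to 1.24.

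The 13184 of 24883 rows that averaged 1 FPKM or more entered limma 3.58.1 (R 4.3.3) as log2(FPKM + 1), with a trend on mean expression and 1 variance per gene over all 30 libraries. The 8 comparisons were each adjusted by Benjamini-Hochberg over tested rows, with a threshold of 0.05. The scale draws fold changes of low genes toward 0. The fit was checked on simulated data. Other steps used Python 3.11.15, numpy 2.4.6, pandas 2.3.3 and matplotlib 3.10.9. Gene coordinates come from GENCODE on GRCm38 (mm10). Named are all 10 members, listed genes with a call, lists of 4 genes or fewer in full, and the 3 nearest genes of each called member. A few genes that this rule names are not reported here. The members and lists were chosen with earlier results of these data known. The alternatives were another pseudocount (0.1), no filter, libraries centred on their median, only the libraries compared, the replicate number as a block, a Cyber-T-style test with unadjusted p values, rows of a symbol summed, length and GC trends removed, each mouse left out, and, added after the data were seen, 3 libraries left out.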

Additional observations from a re-analysis of the deposited data

Results flagged for a closer look

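In each condition of 6 mice, the gap of the highest or lowest mouse to the next was compared with the range of the group. Of 50 groups tested, 5 held a mouse that stood apart, where chance alone marks about 1 group in 20. The groups are genes measured in the same libraries and are not independent, so this count does not show an excess over that rate. VEH-T3 mouse 1 stood apart in 3 genes, with 12.03 FPKM of Camk2d (the other mice 5.23 to 7.57), 12.6 of Camk1g (8.34 to 9.74) and 12 FPKM of Camk4 (9.17 to 10.1). Y397D-T3 mouse 3 had 8.71 FPKM of Camk2d (4.38 to 5.52), and VEH-T10 mouse 1 had 13.1 FPKM of Camk1g (9.15 to 10.5). VEH-T3 mouse 1 and Y397D-T3 mouse 3 are also among the 3 trained libraries in which the deep-cortex markers reached the home-cage range, and the part of that tissue in these values was not tested.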

How the results depend on the processing

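Values are given in the order VEH-T10, VEH-T3, Y397F-T10 and Y397D-T3 against VEH-HC, then all trained mice against VEH-HC. Members called numbered 2, 2, 1, 6 and 5 as reported. The counts were within 1.5 times of these with a pseudocount of 0.1 and with the rows of a symbol summed. Without the filter on mean FPKM, VEH-T3 had 1 member, Y397D-T3 had 4, and the F-test over the 5 conditions had 1 in place of 2. With libraries centred on their median the members were 0, 1, 0, 6 and 4, with only the compared libraries 2, 0, 1 and 6, with length and GC trends removed 1, 1, 0, 6 and 6, and with the Cyber-T-style test and unadjusted p values 5, 4, 4, 6 and 6. Without the 3 libraries high in deep-cortex markers they were 4, 6, 4, 6 and 7, and 5 by the F-test. None of the 3 is from VEH-T10 or VEH-HC, so the VEH-T10 count rose with unchanged differences. Leaving out 1 mouse at a time gave 0 to 2, 0 to 4, 0 to 3, 4 to 5 and 4 to 6 members, and 1 to 4 by the F-test. The cause of these changes was not tested.

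Listed genes called numbered 0, 7, 2, 11 and 13. They were 0, 3, 2, 9 and 12 without the filter, 1, 4, 1, 13 and 12 with centred libraries, 4, 0, 0 and 19 with only the compared libraries, 1, 5, 2, 13 and 14 with length and GC trends removed, 12, 17, 13, 23 and 22 with the Cyber-T-style test, and 5, 13, 10, 17 and 20 without the 3 libraries. The Cyber-T-style test called 2 listed genes in Y397F-T10 against VEH-T10, 5 in Y397D-T3 against VEH-T3 and 6 in VEH-T10 against VEH-T3, where limma called 0. Its calls are at an unadjusted p under 0.05, and it called 1.87%, 5.21% and 4.98% of all tested rows in these comparisons. Against VEH-HC its shares of all tested rows were 11.4%, 17%, 12.6%, 20.7% and 20.9%, in the order above. Leaving out 1 mouse gave 0 to 1, 2 to 11, 0 to 7, 5 to 12 and 7 to 16 listed genes, and 0 to 1 in VEH-T10 against VEH-T3.

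Replicate numbers in the labels belong to different mice. Same-numbered libraries of different conditions had deviations from the condition means that correlated with a median of 0.0416 over 60 pairs (-0.496 to 0.84). For other-numbered libraries the median was 0.00649 over 300 pairs (-0.625 to 0.743). Of 30 libraries, 8 correlated best with their own number. Mouse 1 had the highest deep-cortex level of its condition in VEH-T10, Y397F-T10 and VEH-T3 (0.13, 0.43 and 0.84), but not in VEH-HC or Y397D-T3. Whether same-numbered mice shared handling was not tested. With the replicate number as a block the members called were 2, 2, 0, 6 and 5, since Camk1d in Y397F-T10 moved to an adjusted p of 0.0506 (limma), and listed genes were 1, 7, 2, 12 and 15. The block was not run for the F-test, nor were the compared libraries alone and the Cyber-T-style test.

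No call changed direction. Of the uncalled log2 differences, 9 changed sign under a setting other than leaving out a mouse, each close to 0. With length and GC trends removed, Camk1 in Y397F-T10 against VEH-HC became 0.012, and in Y397F-T10 against VEH-T10 Camk1g became 0.0164 and Camkk2 0.019. Centred libraries gave Camk2b -0.00265 in Y397F-T10 against VEH-T10. Without the 3 libraries, Camk4 became -0.0118, Camkk1 0.055 and Camkk2 0.0195 in Y397F-T10 against VEH-T10, and Camk2g became 0.00632 and Camkk1 -0.0507 in VEH-T10 against VEH-T3. Leaving out 1 mouse changed the sign of further small differences, listed here with their ranges. In Y397F-T10 against VEH-T10 the values ran from -0.0543 to 0.0249 for Camk1d, -0.095 to 0.0571 for Camk1g, -0.0252 to 0.0597 for Camk2b, -0.023 to 0.0373 for Camk2g, -0.0118 to 0.0957 for Camk4, -0.0481 to 0.055 for Camkk1 and -0.0423 to 0.0195 for Camkk2. In VEH-T10 against VEH-T3 they ran from -0.0151 to 0.0641 for Camk1d, -0.0891 to 0.03001 for Camk2b, -0.0775 to 0.0103 for Camk2g and -0.0507 to 0.0626 for Camkk1. In Y397D-T3 against VEH-T3 they ran from -0.0694 to 0.00644 for Camk1 and -0.0678 to 0.0201 for Camk4, and in VEH-T10 against VEH-HC from -0.0296 to 0.0725 for Camk1 and -0.0181 to 0.0839 for Camk4.

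Read totals are unknown. The SD given with a condition mean is the spread among its 6 mice. The standard errors, intervals and p values of the main limma fit rest instead on a variance per gene shared by all conditions. They do not follow the spread of any single condition. Sequencing platform was not assigned to libraries and was not modelled.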
